A study of Mus musculus with 11 samples.

Results

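The cytochrome P450 genes of families 1 to 4 were read in RNA from mouse small intestine. Every row of the table of all libraries whose symbol begins with Cyp, a family number from 1 to 4, a subfamily letter and a digit was taken, and pseudogenes were left out. That gave 68 of the 24250 genes listed: 3 in family 1, 38 in family 2, 8 in family 3 and 19 in family 4. Of these, 67 are protein-coding and 1, Cyp4x1os, is a long non-coding RNA that overlaps Cyp4x1 on the other strand.

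The series compared mice of the group named 5 Substances Powder with Poria (the labels spell its number as a word), a herbal preparation of Chinese medicine (FSP, 4 libraries), mice of the group named HFD, read as high-fat diet (4 libraries), and mice of the group named ND, read as normal diet (3 libraries). What the FSP mice ate is not stated, and neither are the strain, sex and age of the animals, the dose and duration of a treatment, or the stretch of small intestine taken. Whether each library is a separate animal is not stated either, and the p-values reflect only how these samples varied, which may be technical. Expression was deposited as FPKM, a level per gene length and per library total, so that different genes can be set beside each other.

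Cytochrome P450 enzymes are heme proteins, mostly of the endoplasmic reticulum, that insert an oxygen atom into their substrates with electrons passed on by P450 oxidoreductase. Families 1 to 3 are best known for oxidising drugs, food compounds and steroids, with several family 2 enzymes making epoxides of arachidonic acid, and family 4 enzymes hydroxylate fatty acids and eicosanoids at or near the end of the chain. In the gut they act in the enterocytes, the absorbing cells of the villus, and many are switched on by receptors that sense foreign compounds, bile acids or fatty acids.

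Detection was uneven. By their mean over the 11 libraries, 18 of the 68 genes lay at 10 FPKM or more, 6 between 1 and 10 FPKM, 12 between 0.1 and 1 FPKM and 32 above 0 but under 0.1 FPKM, and 34 were above 0 in every library. The 8 genes with the highest means held 79.3% of all P450 FPKM: Cyp4v3, Cyp4f14, Cyp3a25, Cyp2d26, Cyp3a11, Cyp3a13, Cyp2c65 and Cyp4f16. The 18 genes at 10 FPKM or more held 98.7% of it. No family 1 gene reached a mean of 1 FPKM, against 14 of 38 in family 2, 3 of 8 in family 3 and 7 of 19 in family 4. From the spacing of low values of single-exon genes, the libraries held about 3.182e+07 (HFD 1) to 3.84e+07 (FSP 4) fragments, so that 1 fragment of a gene of 2 kb is worth 0.0130 to 0.0157 FPKM. Values near that level rest on a few fragments.

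Promoter sequence is shown for 3 genes that the results turn on: Cyp1a1, high in ND alone, Cyp2c55, which fell in both comparisons with ND, and Cyp2c65, the most abundant Cyp2c gene. The lines give the 250 bases before the start listed for each gene in the RefSeq promoter table of GRCm38.p6, 5′ to 3′ along the gene. The whole gene records of Cyp1a1 and Cyp2c55, whose positions are given with their values, begin upstream of that start. Capitals mark GCGTG, the core of the site bound by the aryl hydrocarbon receptor, TATAAA, and CAAAGTCCA, a motif of the enterocyte and liver factor Hnf4a.
Cyp1a1, chr9:57697363-57697612, plus strand: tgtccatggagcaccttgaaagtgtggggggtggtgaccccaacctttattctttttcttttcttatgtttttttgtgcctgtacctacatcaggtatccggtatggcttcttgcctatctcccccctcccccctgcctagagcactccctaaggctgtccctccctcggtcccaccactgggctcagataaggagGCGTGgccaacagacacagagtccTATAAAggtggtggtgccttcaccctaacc
Cyp2c55, chr19:39006769-39007018, plus strand: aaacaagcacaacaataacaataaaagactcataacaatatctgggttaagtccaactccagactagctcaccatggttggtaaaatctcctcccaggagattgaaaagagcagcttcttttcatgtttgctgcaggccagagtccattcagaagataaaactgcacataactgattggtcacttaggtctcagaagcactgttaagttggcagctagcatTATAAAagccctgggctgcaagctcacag
Cyp2c65, chr19:39060756-39061005, plus strand: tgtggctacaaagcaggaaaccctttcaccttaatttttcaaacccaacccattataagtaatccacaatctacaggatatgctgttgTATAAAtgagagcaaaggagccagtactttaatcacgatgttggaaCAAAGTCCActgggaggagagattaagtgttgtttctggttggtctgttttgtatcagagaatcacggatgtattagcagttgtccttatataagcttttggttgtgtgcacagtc

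Counting the base before the start as −1, the GCGTG of Cyp1a1 begins at −54 and its TATAAA at −30. The TATAAA of Cyp2c55 begins at −29. In Cyp2c65 the CAAAGTCCA begins at −116 and a TATAAA at −162. RefSeq promoters were matched for 57 of the 68 genes, 63 promoters in all, and both strands were searched. GCGTG was found in 19.05% of these promoters, against 28.2% of the 32851 mouse promoters of that length, and TATAAA in 38.1% against 12.4%. CAAAGTCCA was found in 10 of the 63 promoters, 15.9%, against 0.384% of all. The DR1 motif, a direct repeat bound by PPAR-alpha with its partner, was found in none of the 63 and in 0.0335% of all, which says only that these letters are not in these windows. Cyp4a10, a classic target of PPAR-alpha, had no promoter among the 63, so it was not searched for any of these motifs.

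All 10 promoters with CAAAGTCCA belong to Cyp2c or Cyp3a genes. The motif is shown with 10 bases on either side for 6 of them, to set the same letters beside unlike levels of expression.
Cyp2c65, chr19:39060880-39060908, plus strand: gatgttggaaCAAAGTCCActgggaggag
Cyp2c68, chr19:39741160-39741188, minus strand: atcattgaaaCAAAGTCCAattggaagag
Cyp2c67, chr19:39649149-39649177, minus strand: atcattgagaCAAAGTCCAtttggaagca
Cyp2c40, chr19:39812841-39812869, minus strand: atcattgagaCAAAGTCCAtttggaagag
Cyp2c70, chr19:40187332-40187360, minus strand: aggtcaaactCAAAGTCCAaactctgtgt
Cyp3a11, chr5:145879945-145879973, minus strand: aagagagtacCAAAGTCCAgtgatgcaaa

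The genes behind these windows averaged 122 FPKM (Cyp2c65), 59.0 FPKM (Cyp2c68), 0.501 FPKM (Cyp2c67), 0.121 FPKM (Cyp2c40), 0.0654 FPKM (Cyp2c70) and 204 FPKM (Cyp3a11) over the 11 libraries. The other 4, Cyp2c69, Cyp3a16, Cyp3a41a and Cyp3a41b, averaged between 0.00846 and 0.0203 FPKM. The windows of Cyp2c40, Cyp2c67, Cyp2c68 and Cyp2c69, close copies in 1 cluster, share most of their bases, as do those of Cyp3a16, Cyp3a41a and Cyp3a41b, so that the matches are not independent of each other. A match is a stretch of letters, not a measured binding site.

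Some measures of the libraries moved with the groups. Enterocyte markers were high in all of them (13 of 13 listed, summed to 51354 to 76980.4 FPKM in FSP, 49937 to 54446 FPKM in HFD and 29734 to 45512 FPKM in ND), and hepatocyte markers, checked because liver is rich in P450 genes, summed to 0.586 to 1.58 FPKM in FSP, 0.870 to 6.47 FPKM in HFD and 1.89 to 3.64 FPKM in ND. The 11 listed distal small intestine genes, such as Fabp6, summed to 1489 to 5169 FPKM in FSP, 841 to 1199 FPKM in HFD and 2704 to 13403 FPKM in ND, and 9 of the 11 fell in HFD against ND while 6 rose in FSP against HFD and limma called none in FSP against ND (4 lower at an unadjusted p under 0.05). The 12 listed proximal genes, such as Slc46a1, summed to 3131 to 9717 FPKM in FSP, 12226 to 16439.7 FPKM in HFD and 552 to 4841 FPKM in ND. Of the 9 proximal genes tested, 7 rose and 2 fell in HFD against ND, and 1 rose and 2 fell in FSP against HFD; in FSP against ND limma called none, with 5 higher and 1 lower at an unadjusted p under 0.05. No marker of these 4 lists was at 0 in all libraries. A position score, the mean log2 level of the distal list minus that of the proximal list, was 2.495, 2.509, 0.644 and 3.21 in FSP, −0.790, 0.051, −0.659 and −1.08 in HFD and 4.85, 3.90 and 2.30 in ND. Mitochondrially encoded genes took 12.9% to 21.9% of FPKM in FSP, 18.1% to 40.4% in HFD (40.4% in HFD 1) and 16.3% to 22.2% in ND. The P450 genes together took 0.321% to 0.483% of FPKM in FSP, 0.217% to 0.548% in HFD and 0.280% to 0.492% in ND. The single-library tables of HFD and ND list a gene set that differs from that of FSP: they lack Cyp2d12 and Cyp4x1os, which the joint table gives as 0 there, and they list at 0 a further 4 P450 genes that the joint table does not hold (Cyp2c39, Cyp2j12, Cyp3a57 and Cyp4a12b), so the tabulation and the FSP group cannot be told apart.

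By family, family 4 held the largest share of P450 FPKM in FSP and ND, and summed to 1016, 928, 995 and 1079 FPKM in FSP libraries 1 to 4, 502, 649.6, 750.2 and 815 FPKM in HFD libraries 1 to 4 and 647, 806 and 990.3 FPKM in ND libraries 1 to 3. The means were 1004 ± 62.1 FPKM in FSP, 679 ± 137 FPKM in HFD and 814 ± 172 FPKM in ND (SD, n = 4, 4 and 3), a ratio of 1.48 for FSP over HFD and 0.834 for HFD over ND. All FSP libraries lay above all HFD libraries. Family 3 summed to 339, 408, 612 and 391 FPKM in FSP, 387, 427, 923 and 1096 FPKM in HFD and 374, 526 and 849 FPKM in ND, and the libraries of all 3 groups overlapped. Its mean in FSP was 0.618 of that in HFD, and its mean in HFD was 1.22 times that in ND.

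Family 2 summed to 582, 492, 782 and 562 FPKM in FSP, 423, 568, 849 and 999.5 FPKM in HFD and 398, 509.8 and 728 FPKM in ND, again with overlap between all groups and with means of 604 ± 124 FPKM in FSP, 709.7 ± 262 FPKM in HFD and 545 ± 168 FPKM in ND (SD). The family 1 sums were small, 1.49, 0.491, 0.162 and 0.603 FPKM in FSP, 0.787, 1.09, 0.359 and 0.0936 FPKM in HFD and 1.44, 2.97 and 4.62 FPKM in ND, and those of HFD all lay below those of ND. As a share of the P450 total, family 3 took 17.5% to 25.6% in FSP, 25.97% to 37.6% in HFD and 26.3% to 33.01% in ND. Family 4 took 41.6% to 53.1% in FSP, 28.01% to 39.5% in HFD and 38.5% to 45.6% in ND. The sums were not tested. A single gene took a large part of each: Cyp4v3 made up 41.5% of family 4, Cyp3a25 40.1% of family 3 and Cyp2d26 34.4% of family 2.

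**Figure D1:**
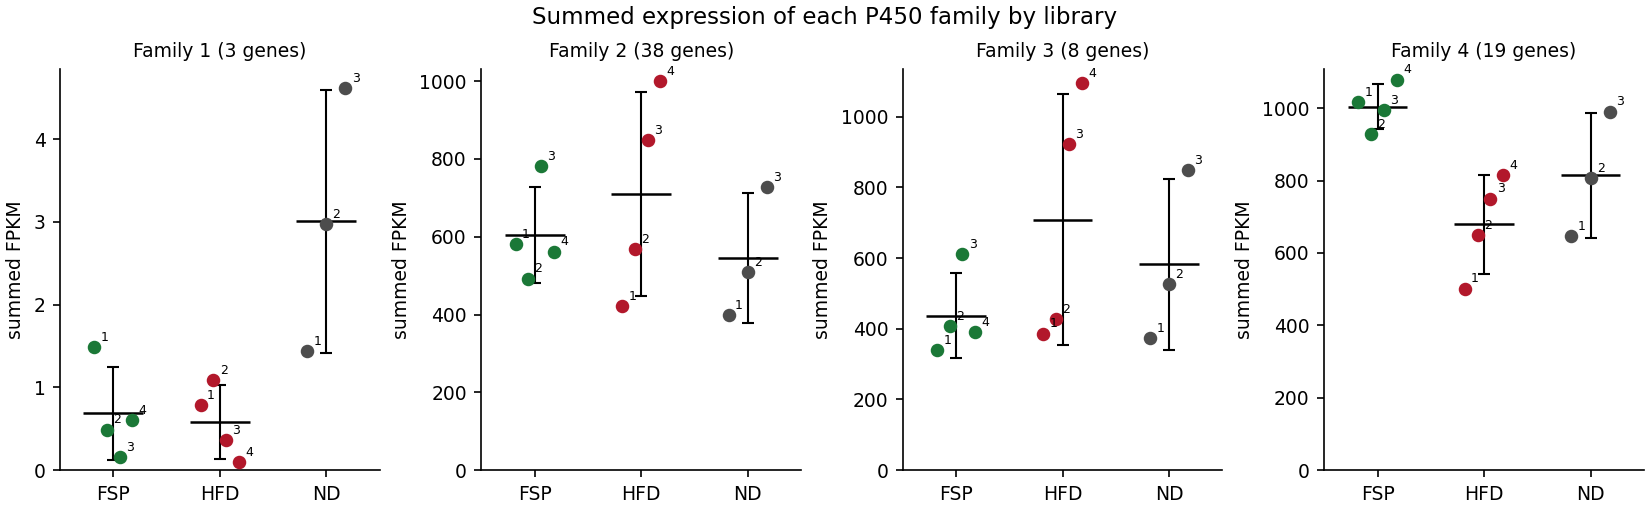
Summed FPKM of each P450 family (y axis, linear) in every library (points, marked with the library number) of the FSP, HFD and ND groups (x axis), with the group mean (wide bar) and 1 SD (whiskers). Family 4 lies between 928 and 1079 FPKM in FSP, above all HFD libraries (502 to 815 FPKM), while families 2 and 3 overlap between all groups.

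Tests were made across the whole table with limma on log2(FPKM + 1), over the 10296 genes with a mean of at least 1 FPKM, and a gene was called at a Benjamini-Hochberg adjusted p under 0.05. Of the 68 P450 genes, 24 were in the test: 14 of family 2, 3 of family 3 and 7 of family 4. The log2 changes below are on that scale, which understates changes of low genes. The 3 comparisons share libraries, so their values are set side by side and are not separate evidence.

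In HFD against ND, 6 P450 genes rose and 3 fell. Those that rose were Cyp2c23, Cyp2d22, Cyp2d26, Cyp2j6 and Cyp2j9 of family 2 and Cyp4a10 of family 4. Those that fell were Cyp2c55 of family 2 and Cyp4b1 and Cyp4f14 of family 4. No family 3 gene was called, and none was at an unadjusted p under 0.05 in limma. Over all genes, 20.5% were called, 5.36% higher and 15.1% lower, against 6 and 3 of the 24 here, and the median log2 change of the 24 was 0.33 against −0.21 over all genes. Under median-ratio scaling, which moved the median of all genes to −0.0084, 1093 genes were called higher and 922 lower in place of 552 and 1557, and 7 P450 genes were called higher and 3 lower. With each library rescaled to an equal FPKM total, 5 were called higher and 4 lower. The HFD and ND libraries did not overlap for 4 of the 24 above (9.28% of all genes) and 4 below (33.6% of all genes).

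In FSP against HFD, Cyp4b1 and Cyp4f14 rose and Cyp2c23 and Cyp4a10 fell. All 4 had moved the other way in HFD against ND, in a comparison that uses the same HFD libraries. Over all genes, 3.74% were called, 2.83% higher and 0.913% lower, and the median log2 change was −0.10 for the 24 and 0.12 for all genes. Again no family 3 gene was called; Cyp3a25 had an unadjusted p of 0.0157 in limma. FSP and HFD libraries did not overlap for 3 of the 24 above (8.52% of all genes) and 2 below (2.3% of all genes). With equal FPKM totals the split was 2 higher and 1 lower.

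In FSP against ND, Cyp2d26 and Cyp2j6 rose and Cyp2c55 fell, with 1.03% of all genes called, 0.699% higher and 0.33% lower. The median log2 change was 0.11 for the 24 and −0.072 for all genes. No gene of families 3 and 4 was called; at an unadjusted p under 0.05, limma had 2 of family 4 higher, Cyp4f16 and Cyp4v3, and none of family 3. FSP and ND libraries did not overlap for 5 of the 24 above (5.57% of all genes) and 1 below (10.9% of all genes). With equal FPKM totals, none was called higher and 1 lower.

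The position scores of HFD, −1.08 to 0.051, did not overlap those of ND, 2.30 to 4.85, or of FSP, 0.644 to 3.21. Group and score can therefore hardly be told apart in the comparisons with HFD, and a call lost there does not decide between them. With the position score as a covariate, no gene of the 10296, P450 or other, was called in HFD against ND, nor was any in FSP against HFD, with 7.83% and 7% of all genes at an unadjusted p under 0.05 in limma. Of the 24 P450 genes, limma then put 0 higher and 5 lower at an unadjusted p under 0.05 in HFD against ND, and 5 higher and 0 lower in FSP against HFD. In that fit the values for HFD over ND on the log2 scale were −2.99 (SE 0.78) for Cyp2c55, −1.89 (SE 0.66) for Cyp4b1 and −1.24 (SE 0.58) for Cyp4f14. Without the score they were −3.47 (SE 0.34), −1.30 (SE 0.29) and −1.18 (SE 0.25), so the score widened the SE of each. Cyp2c23, Cyp2d22, Cyp2d26, Cyp2j6 and Cyp2j9 had 0.33, 0.15, 0.40, 0.46 and 0.28 there with the score, each under its value without it. In FSP against HFD, Cyp4b1 had 1.68 (SE 0.48) and Cyp4f14 1.18 (SE 0.42), beside 1.28 and 1.15 without the score, while Cyp2c23 had −0.29 and Cyp4a10 −0.70, beside −0.92 and −2.61. In FSP against ND, Cyp2c55 was still called with the score in the fit, at −2.79 (SE 0.42, adjusted p = 0.0279), and Cyp2d26 and Cyp2j6, at 0.76 and 0.99, were not. Fitted on the FSP and HFD libraries alone, FSP against HFD called none of the 24 (4 higher and 3 lower at an unadjusted p under 0.05 in limma); its 4 calls were made with a spread estimated over all 11 libraries.

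**Figure D2:**
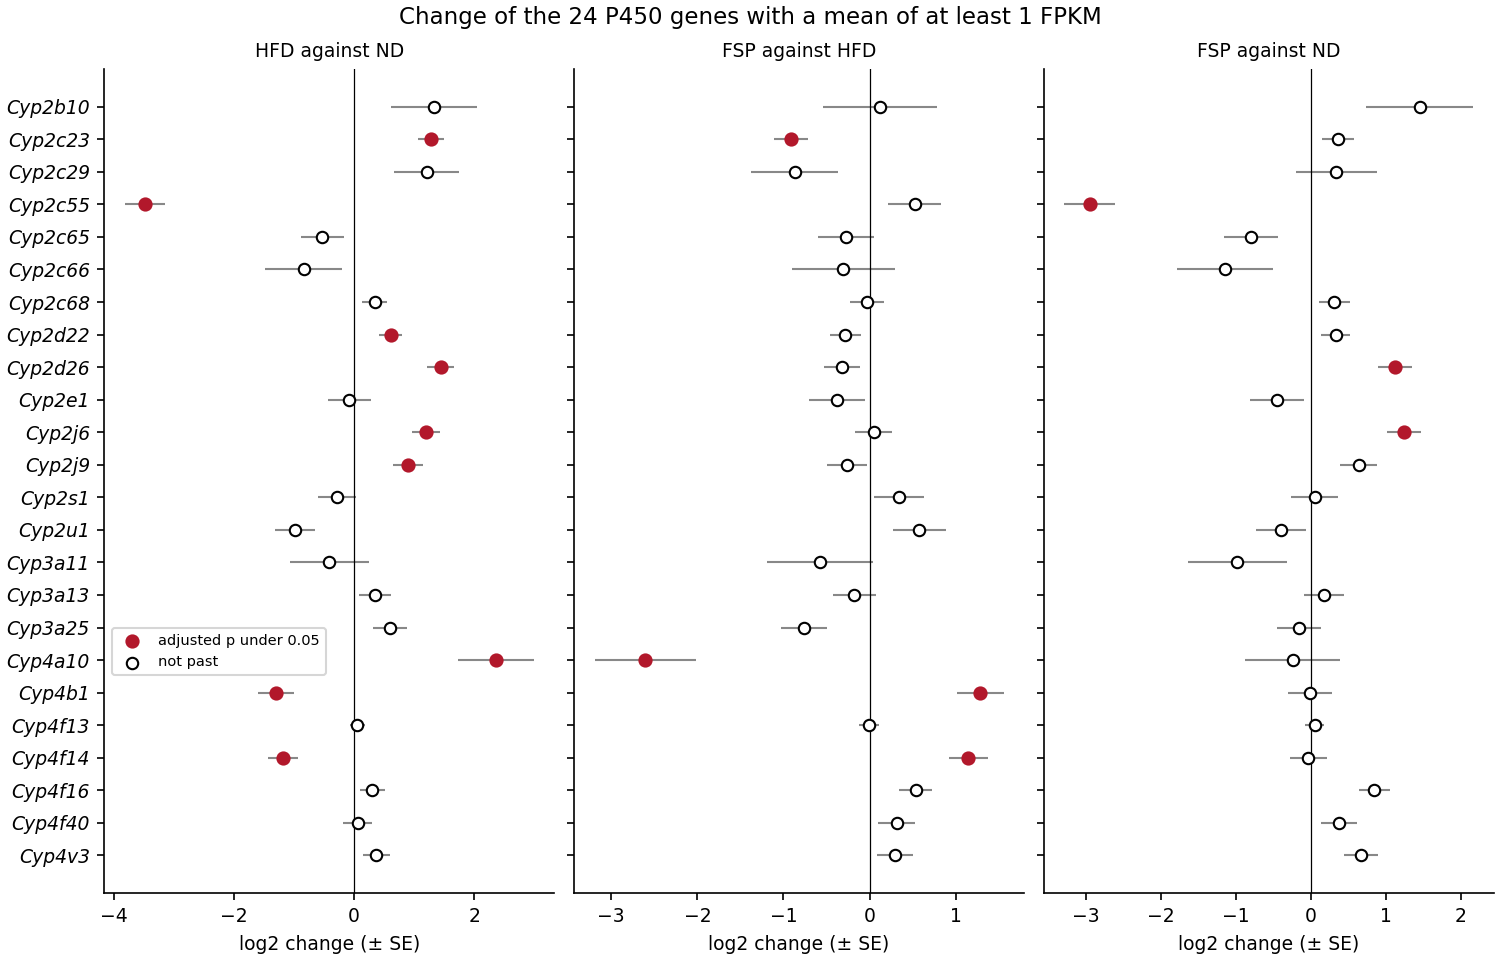
Log2 change on the log2(FPKM + 1) scale (x axis, with the SE as a line) of the 24 tested P450 genes (rows) for the 3 comparisons (panels); each panel has its own x range. Filled points mark an adjusted p under 0.05: 9, 4 and 3 genes in the panels from left to right.

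Family 1 was low throughout. Cyp1a1 (chr9:57687928-57703824, plus strand), which oxidises aromatic hydrocarbons and plant compounds and is the classic target of the aryl hydrocarbon receptor, had 0.0501, 0.107, 0.00941 and 0 FPKM in FSP libraries 1 to 4, 0.259, 0.0425, 0.0203 and 0 FPKM in HFD libraries 1 to 4 and 0.387, 2.00 and 4.11 FPKM in ND libraries 1 to 3. Every ND library lay above every FSP and HFD library, although ND 1 stood close to HFD 1. With a mean under 1 FPKM, Cyp1a1 was not in the main test.

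Tiparp, another gene switched on by the aryl hydrocarbon receptor, averaged 6.53 ± 0.474 FPKM in FSP, 5.79 ± 0.600 FPKM in HFD and 9.59 ± 0.273 FPKM in ND (SD, here and for the other genes below), a log2 change of −0.65 (SE 0.11, adjusted p = 0.0027) in HFD against ND. In FSP against ND its log2 change was −0.49 and was not called in limma (SE 0.11, adjusted p = 0.0587). The receptor gene Ahr itself averaged 2.76 ± 0.194 FPKM in FSP, 3.21 ± 0.536 FPKM in HFD and 2.71 ± 0.380 FPKM in ND and was not called in HFD against ND (adjusted p = 0.338). Cyp1a2, the liver relative of Cyp1a1, was listed above 0 in HFD 1 alone, at 0.0166 FPKM. Cyp1b1, an enzyme of steroid and hydrocarbon oxidation that is known from stromal cells, had 1.44, 0.384, 0.152 and 0.603 FPKM in FSP, 0.511, 1.050, 0.339 and 0.0936 FPKM in HFD and 1.050, 0.973 and 0.506 FPKM in ND, with overlap between all groups. The 9 listed fibroblast genes, whose sums ran over 32.1 to 103 FPKM in FSP, 30.6 to 103 FPKM in HFD and 59.4 to 114 FPKM in ND, had mean log2 levels of 2.94, 1.82, 1.79 and 2.96 in FSP, 1.72, 2.74, 2.25 and 1.84 in HFD and 2.86, 2.64 and 2.21 in ND, and none of them was at 0 throughout. Their part in the Cyp1b1 values was not tested.

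**Figure D3:**
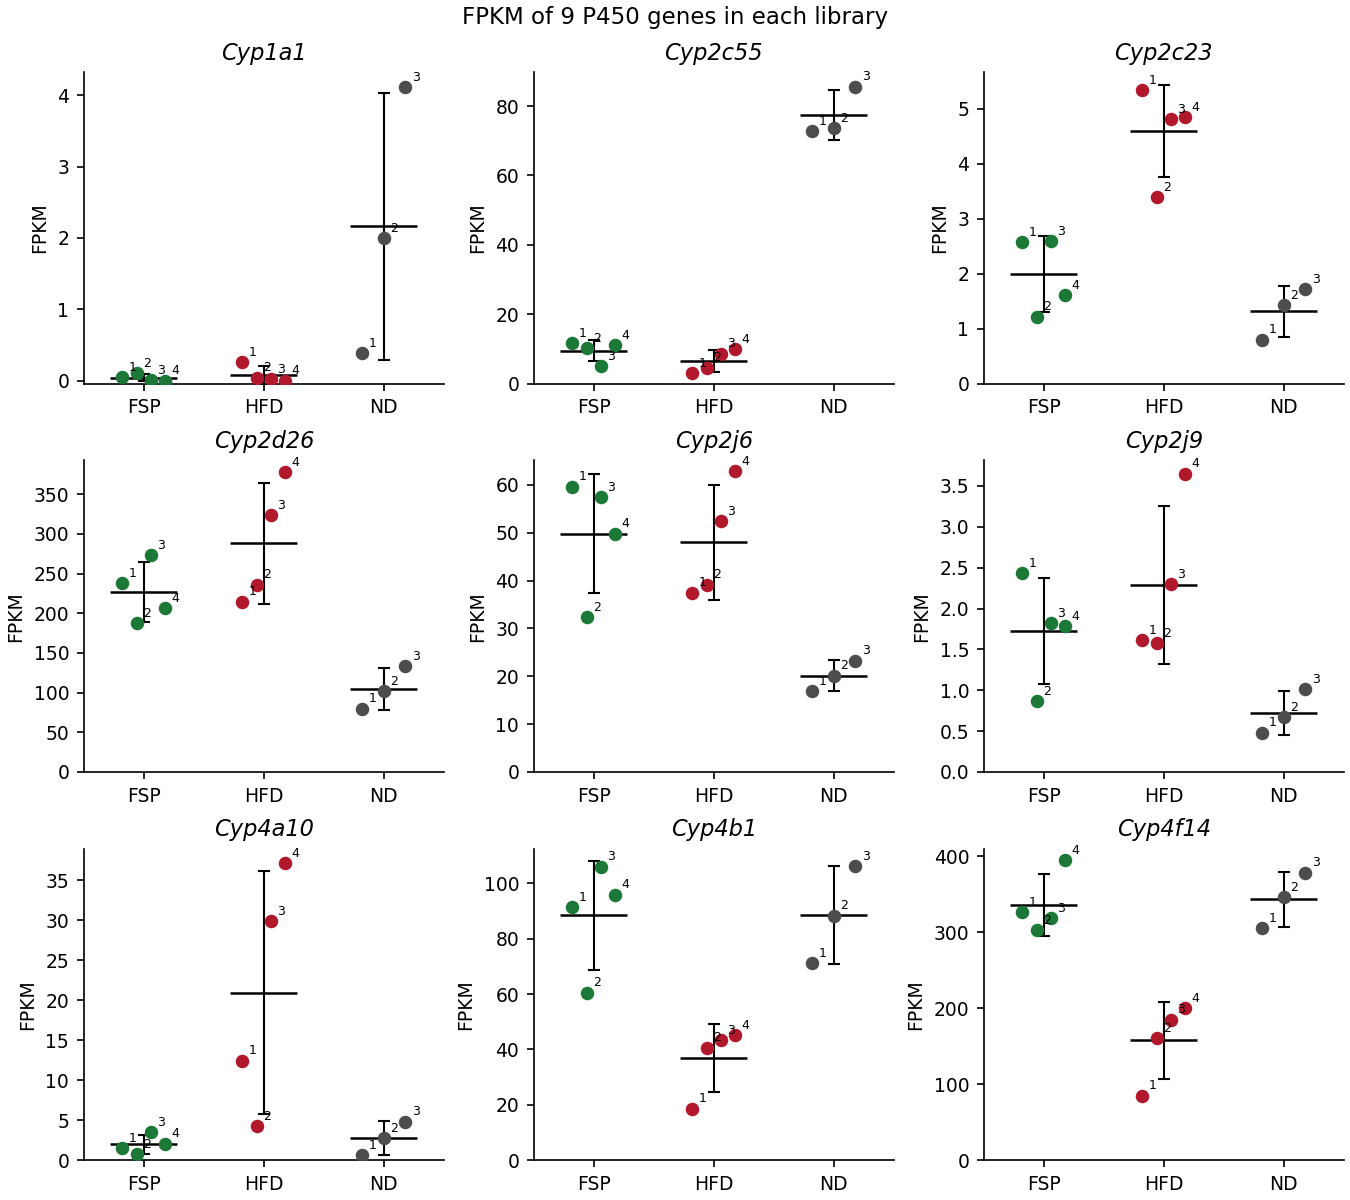
FPKM (y axis, linear) of 9 P450 genes in every library (points, marked with the library number) of FSP, HFD and ND (x axis), with the group mean (wide bar) and 1 SD (whiskers). Cyp2c55 and Cyp1a1 are high in ND alone, Cyp2d26 and Cyp2j6 are low in ND alone, and Cyp4b1 and Cyp4f14 are low in HFD alone.

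Cyp2c55 (chr19:39006940-39042690, plus strand), which hydroxylates arachidonic acid, had the largest log2 change of the 24 tested P450 genes in both comparisons with ND. It had 11.6, 10.3, 5.02 and 11.1 FPKM in FSP libraries 1 to 4, 3.11, 4.63, 8.67 and 9.90 FPKM in HFD libraries 1 to 4 and 72.8, 73.6 and 85.6 FPKM in ND libraries 1 to 3. The ND libraries stood far above all others, and FSP and HFD overlapped. The log2 change was −3.47 (SE 0.34, adjusted p = 0.000325) in HFD against ND and −2.95 (SE 0.34, adjusted p = 0.00242) in FSP against ND, while FSP against HFD gave 0.52 (SE 0.31, adjusted p = 0.404). The means were 9.51 ± 3.04 FPKM in FSP, 6.58 ± 3.23 FPKM in HFD and 77.3 ± 7.18 FPKM in ND (SD), so the level in HFD was 0.0851 of that in ND and the level in FSP 0.123 of it. In these bulk samples, fewer cells of a type and less RNA per cell cannot be told apart. Left out 1 at a time, no library ended either call: the log2 change lay at −3.69 to −3.22 with an adjusted p of at most 0.00338 in HFD against ND and at −3.06 to −2.70 with an adjusted p of at most 0.0203 in FSP against ND. Its transcript shares 0.514% of its 50-base words with any other gene, and it overlaps Gm23800 on the other strand.

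The 13 Cyp2c genes lie on chromosome 19, and their levels run from near 0 to over 100 FPKM along the cluster. Cyp2c65 (chr19:39061006-39093948, plus strand), known from the intestine, had 83.3, 71.7, 132 and 85.2 FPKM in FSP, 58.8, 94.4, 153 and 169 FPKM in HFD and 115, 150.1 and 229 FPKM in ND. Its neighbour Cyp2c66 had 12.6, 9.06, 31.6 and 12.1 FPKM in FSP, 6.55, 12.7, 32.9 and 38.2 FPKM in HFD and 14.1, 35.2 and 73.9 FPKM in ND. Both overlapped between all groups and neither was called, with log2 changes of −0.53 (SE 0.36, adjusted p = 0.288) and −0.84 (SE 0.65, adjusted p = 0.349) in HFD against ND. The pair share 20.2% of the 50-base words of Cyp2c65, so reads from the one may be counted for the other. Cyp2c68 had 59.8, 59.9, 64.5 and 59.5 FPKM in FSP, 39.0, 65.8, 72.0 and 80.9 FPKM in HFD and 44.6, 44.7 and 58.2 FPKM in ND; its FSP libraries differed least of any tested P450 gene, by 1.08 times from the lowest to the highest. FSP lay above ND without overlap for Cyp2c68, with a log2 change of 0.31 (SE 0.21, adjusted p = 0.516). Of its 50-base words, 43.3% occur in other genes, chiefly Cyp2c40, whose own level was 0.116 to 0.151 FPKM in FSP, 0.0698 to 0.219 FPKM in HFD and 0 to 0.149 FPKM in ND.

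Cyp2c23 (chr19:44005022-44029256, minus strand), an arachidonic acid epoxygenase that lies apart from the rest of the cluster, had 2.57, 1.22, 2.59 and 1.61 FPKM in FSP libraries 1 to 4, 5.33, 3.39, 4.80 and 4.84 FPKM in HFD libraries 1 to 4 and 0.803, 1.43 and 1.72 FPKM in ND libraries 1 to 3. All HFD libraries lay above all FSP and all ND libraries, and FSP overlapped ND. The log2 change was 1.28 (SE 0.21, adjusted p = 0.00254) in HFD against ND and −0.92 (SE 0.20, adjusted p = 0.0303) in FSP against HFD. Between FSP and ND it was 0.36 (SE 0.21, adjusted p = 0.461). For HFD against ND no single library ended the call. In FSP against HFD, left out 1 at a time, the call ended without FSP 2, FSP 4, HFD 1, HFD 3, HFD 4 or ND 2, with log2 changes of −1.03 to −0.78 and an adjusted p of up to 0.102. Cyp2c29, an arachidonic acid epoxygenase of liver, had 0.441, 0.0459, 3.36 and 0.221 FPKM in FSP, 0.726, 0.785, 3.60 and 5.34 FPKM in HFD and 0.0160, 0.338 and 0.728 FPKM in ND, with a spread within groups that reached 73.1 times in FSP; it was not called.

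Cyp2c38 and Cyp2c67 lay under the main filter. Cyp2c38 had 0, 0, 0.0894 and 0.0297 FPKM in FSP and 0.642, 0.168, 1.25 and 1.46 FPKM in HFD, and was listed at 0 in all ND libraries. Cyp2c67 had 0.420, 0.486, 0.394 and 0.242 FPKM in FSP, 0.870, 0.684, 0.961 and 1.054 FPKM in HFD and 0.131, 0.221 and 0.0466 FPKM in ND. For both, every HFD library lay above every FSP and every ND library. They were not in the main test, and no p-value is given for them. Of the 50-base words of Cyp2c67, 52.8% occur in other genes. The remaining Cyp2c genes, Cyp2c37, Cyp2c50, Cyp2c69 and Cyp2c70, had means under 0.1 FPKM.

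**Figure D4:**
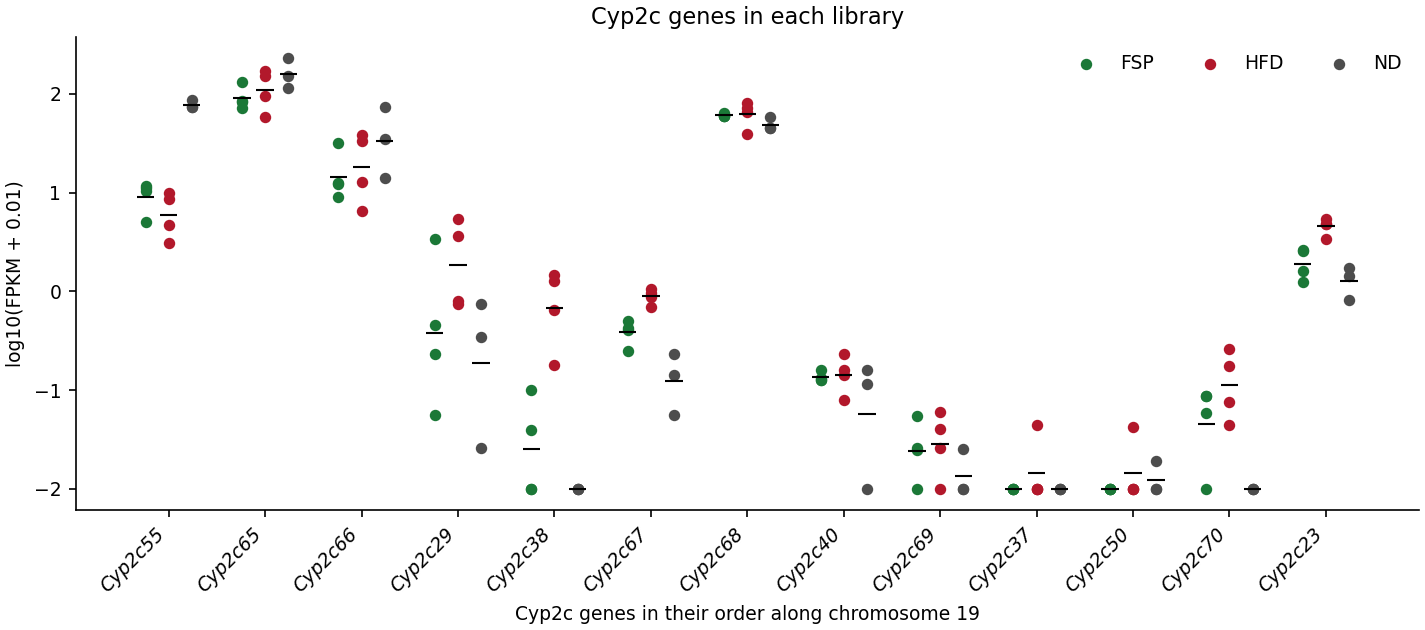
Level of the 13 Cyp2c genes, in their order along chromosome 19 (x axis), as log10(FPKM + 0.01) (y axis), in every library of FSP, HFD and ND (points, with a bar at the group mean of the log values). Cyp2c55 has ND far above FSP and HFD, Cyp2c38 and Cyp2c67 have HFD above both, and a value of −2 is a gene listed at 0.

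Among the other family 2 genes, Cyp2d26 (chr15:82790107-82794452, minus strand) was the most abundant. It is a mouse member of the subfamily of drug-oxidising enzymes to which human CYP2D6 belongs. It had 238, 187, 274 and 207 FPKM in FSP libraries 1 to 4, 215, 236, 324 and 378 FPKM in HFD libraries 1 to 4 and 79.9, 101 and 133 FPKM in ND libraries 1 to 3. All FSP and HFD libraries lay above all ND libraries. The log2 change was 1.44 (SE 0.23, adjusted p = 0.00201) in HFD against ND, 1.12 (SE 0.23, adjusted p = 0.0435) in FSP against ND and −0.32 (SE 0.21, adjusted p = 0.447) in FSP against HFD. The mean in HFD was 2.75 times that in ND, and the mean in FSP 2.16 times. For HFD against ND no single library ended the call. In FSP against ND, left out 1 at a time, the call ended without FSP 1, FSP 2, FSP 3, FSP 4, HFD 2, HFD 3, ND 1 or ND 2, with log2 changes of 0.94 to 1.31 and an adjusted p of up to 0.242.

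Cyp2d22 had 21.0, 17.1, 15.7 and 15.96 FPKM in FSP, 16.03, 21.3, 23.7 and 25.2 FPKM in HFD and 10.46, 13.2 and 17.97 FPKM in ND, with HFD and ND overlapping and a log2 change of 0.61 (SE 0.19, adjusted p = 0.0447) in HFD against ND. There, left out 1 at a time, the call ended without FSP 3, FSP 4, HFD 2, HFD 3, HFD 4, ND 1 or ND 2, with log2 changes of 0.44 to 0.80 and an adjusted p of up to 0.191. The other 6 Cyp2d genes all had means under 0.1 FPKM, so 1 gene made up 92.2% of the subfamily.

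Cyp2j6 (chr4:96516138-96564305, minus strand), known from the small intestine, had 59.7, 32.4, 57.5 and 49.8 FPKM in FSP libraries 1 to 4, 37.5, 39.2, 52.4 and 62.8 FPKM in HFD libraries 1 to 4 and 16.9, 20.1 and 23.3 FPKM in ND libraries 1 to 3. As for Cyp2d26, FSP and HFD overlapped and both lay above ND throughout. The log2 change was 1.19 (SE 0.23, adjusted p = 0.00553) in HFD against ND, 1.24 (SE 0.23, adjusted p = 0.0322) in FSP against ND and 0.048 (SE 0.22, adjusted p = 0.938) in FSP against HFD. The call in HFD against ND held without any one library. In FSP against ND, left out 1 at a time, the call ended without FSP 1, FSP 3, FSP 4, HFD 3, ND 1 or ND 2, with log2 changes of 1.13 to 1.43 and an adjusted p of up to 0.188. Its relative Cyp2j9 had 2.44, 0.863, 1.82 and 1.78 FPKM in FSP, 1.62, 1.58, 2.30 and 3.65 FPKM in HFD and 0.480, 0.671 and 1.02 FPKM in ND, a far lower level, and its log2 change was 0.90 (SE 0.25, adjusted p = 0.0258) in HFD against ND. For Cyp2j9, left out 1 at a time, the call ended without HFD 3, HFD 4, ND 1 or ND 2, with log2 changes of 0.72 to 1.02 and an adjusted p of up to 0.109. The other 4 Cyp2j genes had means under 0.1 FPKM, and Cyp2j6 made up 95.8% of the subfamily.

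Cyp2b10, the classic target of the constitutive androstane receptor, had 57.9, 76.9, 171 and 75.9 FPKM in FSP, 25.5, 61.2, 138 and 187 FPKM in HFD and 10.55, 37.6 and 74.5 FPKM in ND. The groups overlapped, and the highest library stood above the lowest by 2.95 times in FSP, 7.32 times in HFD and 7.06 times in ND. Its log2 change was 1.33 (SE 0.71, adjusted p = 0.192) in HFD against ND and 1.45 (SE 0.71, adjusted p = 0.38) in FSP against ND, neither called. Nr1i3, the gene of that receptor, averaged 20.2 ± 6.30 FPKM in FSP, 30.3 ± 3.77 FPKM in HFD and 9.53 ± 4.29 FPKM in ND and rose in HFD against ND, by 1.65 (SE 0.27, adjusted p = 0.00245) on the log2 scale.

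Cyp2e1, which oxidises ethanol and other small molecules, had 1.74, 0.0771, 1.28 and 3.01 FPKM in FSP, 1.19, 2.27, 2.87 and 1.77 FPKM in HFD and 1.97, 2.20 and 2.20 FPKM in ND. The 7 listed adipocyte genes had mean log2 levels of 2.98, 1.07, 1.79 and 3.89 in FSP, 1.45, 2.38, 2.19 and 1.93 in HFD and 1.44, 1.60 and 1.45 in ND, with sums of 54.9 to 143 FPKM in FSP, 70.7 to 94.7 FPKM in HFD and 24.3 to 42.0 FPKM in ND and no gene at 0 throughout. FSP 2, the library lowest in Cyp2e1, was the lowest in these genes too, and FSP 4 was the highest of FSP in both. HFD 1 was the lowest of HFD in both, but the highest was HFD 3 for Cyp2e1 and HFD 2 for the adipocyte genes. ND had the highest mean of Cyp2e1, 2.12 FPKM, with the lowest sums of the adipocyte genes. The part of fat tissue in the Cyp2e1 values was not tested. Cyp2s1, an enzyme of epithelia, had 18.8 to 31.0 FPKM in FSP, 8.33 to 26.8 FPKM in HFD and 21.6 to 22.6 FPKM in ND. Cyp2u1, a fatty acid hydroxylase, had 5.25, 3.32, 1.65 and 5.49 FPKM in FSP, 0.916, 3.61, 2.49 and 2.04 FPKM in HFD and 5.82, 5.55 and 4.13 FPKM in ND. HFD lay below ND without overlap, with a log2 change of −0.98 (SE 0.33, adjusted p = 0.0585) in HFD against ND. Cyp2s1 and Cyp2u1 overlap a gene on the other strand, and the use of strand in counting is not given.

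Family 3 consists of the Cyp3a genes, which oxidise a wide range of drugs as well as steroids and bile acids, and of its 8 members 3 made up nearly all of the level. Cyp3a25 (chr5:145977192-146009644, minus strand) had 126, 192, 227 and 164 FPKM in FSP libraries 1 to 4, 196, 249.6, 393 and 389 FPKM in HFD libraries 1 to 4 and 149, 179 and 272 FPKM in ND libraries 1 to 3. Its FSP and HFD libraries overlapped, and so did those of HFD and ND. The log2 change was −0.76 (SE 0.27, adjusted p = 0.148) in FSP against HFD and 0.60 (SE 0.29, adjusted p = 0.152) in HFD against ND. Its neighbour Cyp3a59 shares 25.0% of its 50-base words and had 0.167 to 0.246 FPKM in FSP, 0.185 to 0.273 FPKM in HFD and 0.226 to 0.471 FPKM in ND.

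Cyp3a11 (chr5:145854607-145879854, minus strand), the main target of the pregnane X receptor in mouse liver, had 96.5, 90.5, 212 and 98.3 FPKM in FSP libraries 1 to 4, 73.0, 77.0, 339.6 and 471 FPKM in HFD libraries 1 to 4 and 124, 229 and 433 FPKM in ND libraries 1 to 3. FSP 3, HFD 3, HFD 4 and ND 3 stood above the other libraries of their groups. The log2 changes were −0.41 (SE 0.66, adjusted p = 0.658) in HFD against ND and −0.57 (SE 0.61, adjusted p = 0.674) in FSP against HFD, with −0.98 (SE 0.66, adjusted p = 0.518) between FSP and ND, none of them called. HFD against ND gave 0.0013 without HFD 1 and 0.040 without ND 3. Cyp3a13, the Cyp3a gene known for its expression in the intestine, was more even, with 116, 125, 173 and 129 FPKM in FSP, 117, 101, 190.2 and 235 FPKM in HFD and 99.9, 117 and 143 FPKM in ND, and its log2 change was 0.35 (SE 0.27, adjusted p = 0.351) in HFD against ND. Nr1i2, the gene of the pregnane X receptor, averaged 37.2 ± 2.83 FPKM in FSP, 45.6 ± 7.30 FPKM in HFD and 35.4 ± 2.15 FPKM in ND and was not called in HFD against ND (adjusted p = 0.0826). The other 4, Cyp3a16, Cyp3a41a, Cyp3a41b and Cyp3a44, had means of 0.00846 to 0.126 FPKM, and Cyp3a41a and Cyp3a41b are near-identical, with 98.6% of the 50-base words of Cyp3a41a in other genes.

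In family 4, Cyp4a10 (chr4:115518287-115533649, plus strand) had its highest mean in HFD. It hydroxylates the end of medium and long fatty acid chains and is a classic target of PPAR-alpha. It had 1.49, 0.768, 3.53 and 2.06 FPKM in FSP libraries 1 to 4, 12.5, 4.27, 29.9 and 37.2 FPKM in HFD libraries 1 to 4 and 0.639, 2.80 and 4.83 FPKM in ND libraries 1 to 3. All FSP libraries lay below all HFD libraries, while HFD 2 lay under ND 3. The means were 1.96 ± 1.17 FPKM in FSP, 20.9 ± 15.2 FPKM in HFD and 2.75 ± 2.09 FPKM in ND (SD), so that HFD stood at 7.60 times ND and FSP at 0.0936 of HFD. The log2 change was 2.36 (SE 0.63, adjusted p = 0.0241) in HFD against ND and −2.61 (SE 0.59, adjusted p = 0.0363) in FSP against HFD, with −0.24 (SE 0.63, adjusted p = 0.886) between FSP and ND. In HFD against ND, left out 1 at a time, the call ended without HFD 3, HFD 4, ND 1 or ND 2, with log2 changes of 1.85 to 2.92 and an adjusted p of up to 0.116. In FSP against HFD, left out 1 at a time, the call ended without FSP 1, FSP 2, FSP 4, HFD 1, HFD 3, HFD 4 or ND 2, with log2 changes of −3.17 to −2.22 and an adjusted p of up to 0.105. With the position score as a covariate, the change in HFD against ND was −0.53 (SE 1.13, adjusted p = 0.908), the other way.

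Of the 50-base words of Cyp4a10, 30.5% occur in other genes, chiefly Cyp4a32, which had 0.0135, 0, 0.0381 and 0.0253 FPKM in FSP, 0.258, 0.0287, 0.205 and 0.182 FPKM in HFD and 0, 0.0132 and 0.0260 FPKM in ND. Cyp4a14, another PPAR-alpha target of liver, was listed at 0 in all FSP and ND libraries and in HFD 2 and HFD 3, and had 0.0190 FPKM in HFD 1 and 0.00811 FPKM in HFD 4. The other 3 Cyp4a genes, Cyp4a12a, Cyp4a29 and Cyp4a31, had means under 0.1 FPKM. Ppara, the gene of the receptor, averaged 6.86 ± 2.41 FPKM in FSP, 7.64 ± 3.01 FPKM in HFD and 4.26 ± 0.409 FPKM in ND and was not called in HFD against ND (adjusted p = 0.135).

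Cyp4f14 (chr17:32903357-32917376, minus strand), which inactivates leukotriene B4 by hydroxylation of its end, and Cyp4b1 (chr4:115624698-115647721, minus strand), a fatty acid hydroxylase, were low in HFD alone. Cyp4f14 had 326, 303, 318 and 394 FPKM in FSP libraries 1 to 4, 85.0, 160.5, 185 and 200.02 FPKM in HFD libraries 1 to 4 and 306, 346 and 378 FPKM in ND libraries 1 to 3. Cyp4b1 had 91.4, 60.5, 106 and 96.0 FPKM in FSP, 18.6, 40.7, 43.3 and 45.3 FPKM in HFD and 71.1, 88.4 and 106 FPKM in ND. For both genes all HFD libraries lay below all FSP and all ND libraries, and FSP overlapped ND. Cyp4f14 averaged 335 ± 40.6 FPKM in FSP, 158 ± 51.1 FPKM in HFD and 343 ± 36.4 FPKM in ND (SD), and Cyp4b1 averaged 88.5 ± 19.6 FPKM in FSP, 37.0 ± 12.4 FPKM in HFD and 88.6 ± 17.6 FPKM in ND (SD). The log2 change of Cyp4f14 was −1.18 (SE 0.25, adjusted p = 0.00791) in HFD against ND and 1.15 (SE 0.23, adjusted p = 0.0245) in FSP against HFD, with −0.036 (SE 0.25, adjusted p = 0.958) between FSP and ND. That of Cyp4b1 was −1.30 (SE 0.29, adjusted p = 0.0114), 1.28 (SE 0.27, adjusted p = 0.0291) and −0.013 (SE 0.29, adjusted p = 0.987) in the same comparisons.

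Both falls in HFD against ND held without any one library, with log2 changes at −1.32 to −0.91 with an adjusted p of at most 0.0383 for Cyp4f14 and −1.45 to −1.01 with an adjusted p of at most 0.0481 for Cyp4b1. In both genes HFD 1, the library with the most mitochondrially encoded RNA, was the lowest of all. For Cyp4f14 in FSP against HFD, left out 1 at a time, the call ended without FSP 1, FSP 4 or HFD 3, with log2 changes of 0.88 to 1.29 and an adjusted p of up to 0.0843. For Cyp4b1 in FSP against HFD, left out 1 at a time, the call ended without FSP 1, FSP 4, HFD 3 or ND 2, with log2 changes of 0.99 to 1.46 and an adjusted p of up to 0.0961. That FSP against ND was not called for them does not show that these groups were alike.

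Cyp4v3 (chr8:45305801-45333163, minus strand), the mouse counterpart of human CYP4V2, a fatty acid hydroxylase mutated in an inherited disease of the retina, was the most abundant P450 gene. It had 398, 421, 436 and 390.1 FPKM in FSP libraries 1 to 4, 272, 337, 356 and 380.2 FPKM in HFD libraries 1 to 4 and 171, 260.4 and 386 FPKM in ND libraries 1 to 3. FSP lay above HFD without overlap, and above ND without overlap, but neither difference was called, with log2 changes of 0.30 (SE 0.21, adjusted p = 0.48) in FSP against HFD and 0.67 (SE 0.23, adjusted p = 0.196) in FSP against ND. It overlaps Gm45753 on the same strand, which shares 7.02% of its 50-base words. Cyp4f16 (chr17:32536545-32551798, plus strand) had 135, 94.5, 82.6 and 132 FPKM in FSP, 72.7, 55.9, 80.0 and 95.5 FPKM in HFD and 55.5, 59.7 and 65.5 FPKM in ND. Its FSP libraries lay above its ND libraries, and the log2 change was 0.84 (SE 0.21, adjusted p = 0.0811) in FSP against ND. The closely related Cyp4f37, with 24.8% of the 50-base words of Cyp4f16, averaged 0.0286 FPKM. Cyp4f13 was at 23.9 to 29.8 FPKM in FSP, 24.04 to 28.7 FPKM in HFD and 21.7 to 28.6 FPKM in ND, and Cyp4f40 had 22.5 to 37.6, 13.6 to 26.8 and 20.2 to 23.0 FPKM in these groups.

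Cyp4f15 and Cyp4f18 lay under the main filter and, like Cyp2c38, Cyp2c67 and Cyp2r1, were chosen after their values were seen. Cyp4f15 had 0.168, 0.0125, 0.0363 and 0.0965 FPKM in FSP, 0.478, 0.109, 0.573 and 0.916 FPKM in HFD and 0.0393, 0 and 0 FPKM in ND. All HFD libraries lay above all ND libraries, given as a description with no test. Cyp4f18, known from neutrophils, had 2.31, 1.33, 0.0418 and 0.408 FPKM in FSP, 2.33, 1.88, 0.782 and 0.0769 FPKM in HFD and 0.163, 0.113 and 0.0686 FPKM in ND. FSP 1, FSP 2, HFD 1 and HFD 2 stood above 1 FPKM and all other libraries below.

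The 12 listed B and plasma cell genes had mean log2 levels of 4.35, 3.29, 0.758 and 1.31 in FSP, 3.84, 3.69, 2.56 and 0.863 in HFD and 0.853, 0.755 and 0.737 in ND, with sums of 86.9 to 812 FPKM in FSP, 125 to 309.6 FPKM in HFD and 38.6 to 64.7 FPKM in ND and no gene at 0 throughout. The 8 listed macrophage genes had mean log2 levels of 3.07, 2.88, 1.18 and 2.56 in FSP, 2.46, 2.34, 1.86 and 1.53 in HFD and 1.73, 1.64 and 1.47 in ND. FSP 1, FSP 2, HFD 1 and HFD 2, high in Cyp4f18, were the 4 highest in the B and plasma cell genes too, and the part of immune cells in the Cyp4f18 values was not tested. Of the other low P450 genes, Cyp2r1, a vitamin D hydroxylase, had 0.352, 0.264, 0.571 and 0.464 FPKM in FSP, 0.773, 0.797, 0.743 and 0.922 FPKM in HFD and 0.488, 0.500 and 0.339 FPKM in ND, with HFD above both other groups throughout. Low genes also went the other way. Cyp2w1 had 0.103 to 0.516 FPKM in FSP, 0.0747 to 0.190 FPKM in HFD and 0.211 to 0.513 FPKM in ND. Cyp4f39 had 0.0892 to 0.148 FPKM in FSP, 0 to 0.0672 FPKM in HFD and 0.0814 to 0.236 FPKM in ND. For both, every HFD library lay below every ND library, given as a description with no test.

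Within each group, many P450 genes were high in the same library. FSP 3, HFD 4 and ND 3 had the lowest position score of their groups, that is, the most proximal balance of marker genes. Of the 24 tested P450 genes, 13 were highest of FSP in FSP 3, 20 highest of HFD in HFD 4 and 21 highest of ND in ND 3, while 6, 0 and 3 were lowest there. Highest there in all 3 groups were Cyp2b10, Cyp2c29, Cyp2c65, Cyp2c66, Cyp2c68, Cyp2d26, Cyp3a11, Cyp3a13, Cyp4a10, Cyp4b1 and Cyp4v3, 11 genes. The highest library stood above the lowest of its group by more than 6 times, in at least 1 group, for Cyp2b10, Cyp2c29, Cyp2e1, Cyp3a11 and Cyp4a10. The share of all tested genes highest in FSP 3, HFD 4 and ND 3 was not counted. These counts are therefore not shown to be particular to P450 genes. HFD 4 and ND 3 also had the smallest mitochondrially encoded share of FPKM in their groups, 18.1% and 16.3%. FSP 3 had 13.4%, beside 12.9% in FSP 4. The part of that share in these patterns was not tested. The part of the stretch of intestine sampled in these patterns was not tested beyond the fit with the score.

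**Figure D5:**
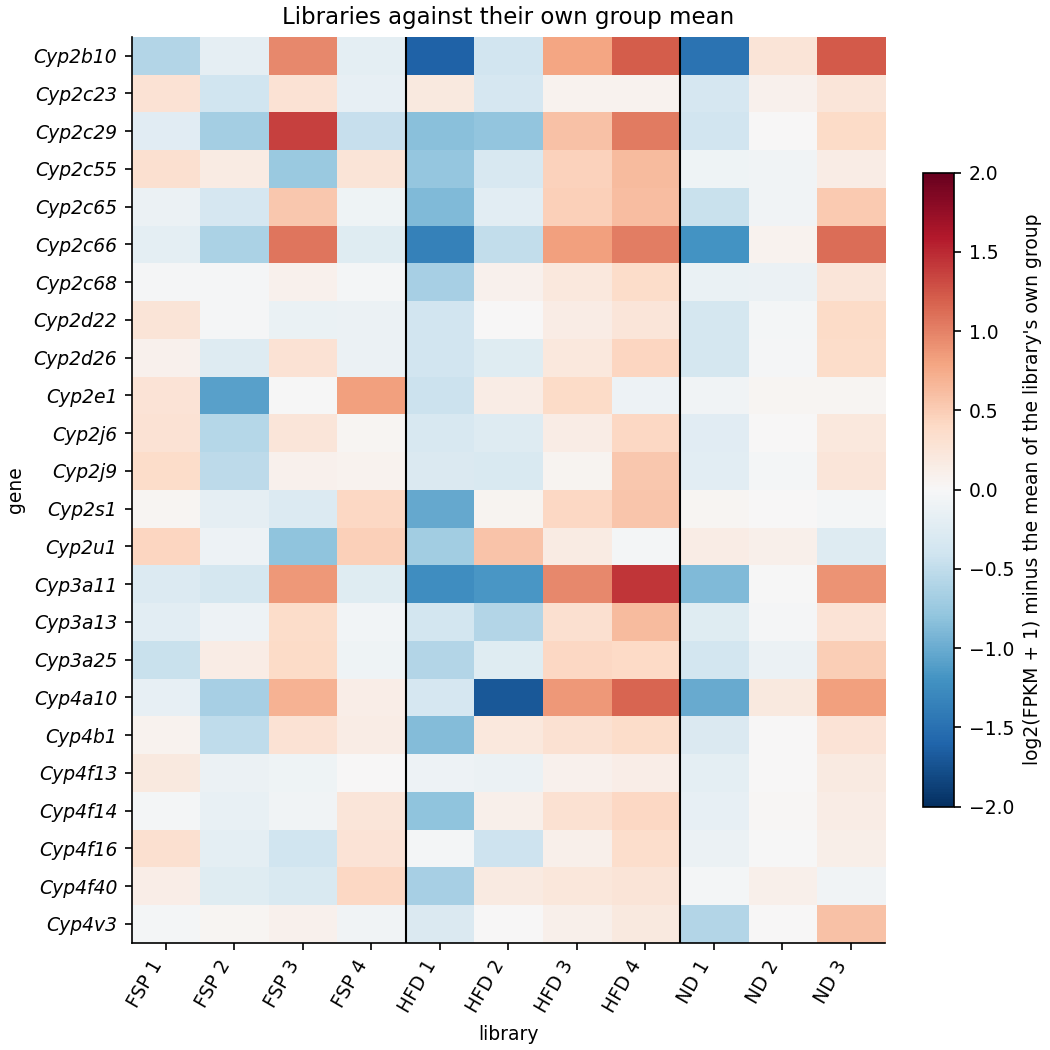
Log2(FPKM + 1) of the 24 tested P450 genes (rows) in each library (columns, in the order FSP, HFD and ND) minus the mean of the library's own group, from −2 (blue) to 2 (red). FSP 3, HFD 4 and ND 3 are above their group mean for most genes, and HFD 1 and ND 1 are below it for most.

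Of 13 tested electron donors and heme enzymes, on which P450 proteins depend, 2 rose in HFD against ND and none fell, against 5.36% and 15.1% of all genes. Por, the oxidoreductase that passes electrons to microsomal P450 enzymes, averaged 78.8 ± 22.6 FPKM in FSP, 106 ± 50.1 FPKM in HFD and 42.2 ± 11.1 FPKM in ND, a log2 change of 1.22 (SE 0.34, adjusted p = 0.03) in HFD against ND. Cyb5r3, a reductase of cytochrome b5, averaged 82.3 ± 12.7 FPKM in FSP, 130.5 ± 34.3 FPKM in HFD and 46.5 ± 16.4 FPKM in ND, a log2 change of 1.49 (SE 0.25, adjusted p = 0.00277). Alas1, which starts heme synthesis, averaged 35.4 ± 7.01 FPKM in FSP, 33.8 ± 14.2 FPKM in HFD and 31.9 ± 7.78 FPKM in ND. Neither comparison with FSP had a call among the 13 in limma, with 2 lower against HFD and 2 higher against ND at an unadjusted p under 0.05. The median log2 change of the 13 was 0.098 in HFD against ND and −0.10 in FSP against HFD, beside −0.21 and 0.12 over all genes.

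Of 19 tested regulators, 3 rose and 5 fell in HFD against ND, against 5.36% and 15.1% of all genes. Those with the smallest p were Nr1h4, the bile acid receptor FXR, Nr1i3, Tiparp and Nr0b2, a repressor switched on by FXR. Nr1h4 averaged 13.1 ± 2.56 FPKM in FSP, 9.48 ± 1.79 FPKM in HFD and 35.3 ± 10.99 FPKM in ND, a log2 change of −1.76 (SE 0.23, adjusted p = 0.000918) in HFD against ND. Nr0b2 averaged 0.767 ± 0.313 FPKM in FSP, 4.12 ± 2.43 FPKM in HFD and 0.159 ± 0.125 FPKM in ND; it passed the filter on low values only through HFD, so its calls are counted but support nothing. Hnf4a, whose motif is printed above, averaged 172 ± 33.3 FPKM in FSP, 119.7 ± 12.3 FPKM in HFD and 198 ± 5.32 FPKM in ND and fell in HFD against ND by 0.73 on the log2 scale (SE 0.16, adjusted p = 0.00879). In FSP against HFD, Nr0b2 was the 1 regulator called, lower, against 0.913% of all genes. Between FSP and ND, Nr1h4 was the 1 called, lower in FSP, with a log2 change of −1.33 (SE 0.23, adjusted p = 0.0247), against 0.33% of all genes.

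The 19 PPAR-alpha targets outside the P450 genes, many of which serve fatty acid oxidation, were all tested. In HFD against ND 7 rose and 2 fell, against 5.36% and 15.1% of all genes. In FSP against HFD 5 fell and none rose, against 0.913% and 2.83% of all genes, and in FSP against ND limma called none, with 2 higher and 5 lower at an unadjusted p under 0.05. Acot2, a mitochondrial acyl-CoA thioesterase, averaged 2.37 ± 0.374 FPKM in FSP, 6.39 ± 1.59 FPKM in HFD and 2.35 ± 0.501 FPKM in ND and changed by 1.12 and −1.11 on the log2 scale in HFD against ND and in FSP against HFD. Pdk4, a kinase that holds back glucose oxidation, changed by 1.25 and −1.07 in the same comparisons. Vnn1, a pantetheinase, fell in HFD against ND, with a log2 change of −2.22 (SE 0.34, adjusted p = 0.00186). The median log2 change of the 19 was 0.29 in HFD against ND, beside −0.21 over all genes. It was −0.32 for FSP against HFD, beside 0.12, and −0.11 for FSP against ND, beside −0.072.

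Among the epoxide hydrolases, which open the epoxides that family 2 enzymes make, Ephx2 averaged 198 ± 65.0 FPKM in FSP, 339 ± 88.1 FPKM in HFD and 94.1 ± 50.4 FPKM in ND and rose in HFD against ND, by 1.94 (SE 0.35, adjusted p = 0.00385) on the log2 scale. Ephx1 averaged 5.74 ± 1.97 FPKM in FSP, 7.89 ± 2.57 FPKM in HFD and 4.62 ± 1.11 FPKM in ND and was not called in HFD against ND (adjusted p = 0.113). Of 5 tested P450 genes outside families 1 to 4, Cyp51, an enzyme of cholesterol synthesis, averaged 14.3 ± 3.96 FPKM in FSP, 5.79 ± 1.24 FPKM in HFD and 24.3 ± 10.3 FPKM in ND. It fell in HFD against ND, with a log2 change of −1.82 (SE 0.29, adjusted p = 0.00201), and rose in FSP against HFD, with 1.15 (SE 0.27, adjusted p = 0.04). The other 4 were called in neither comparison, and none of the 5 was called in FSP against ND, where limma had Cyp51 lower at an unadjusted p of 0.0387.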

How the data were processed

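RNA of mouse small intestine, extracted with TRIzol and made into libraries with a VAHTS kit per the labels' protocols, was sequenced in 11 libraries. Reads were processed with fastp, HISAT2, HTSeq and R 3.2.0 on mm10, per the submitters' processing notes, and the authors deposited FPKM per gene. For the annotation, the strand setting and the FPKM tool, nothing was given in the sources used here. Every column was mapped to a library.

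The deposited FPKM values were not counts, so limma 3.58.1 in R 4.3.3 was run on log2(FPKM + 1), with all 3 groups in 1 fit, a mean-variance trend, two-sided tests and Benjamini-Hochberg adjustment over the 10296 genes with a mean of at least 1 FPKM. The threshold was an adjusted p of 0.05. The P450 genes and the gene lists were chosen with earlier results of these data known. Values in every library are given for the 8 P450 genes with the highest mean, those past the threshold and 9 listed genes; others are named for their values. On simulated data for HFD against ND, where 200 of 10296 genes were changed by 2 on the log2 scale, 95% were recovered and 4.52% of calls were false. The changed genes were drawn from those with a mean log2(FPKM + 1) above 2, and the noise was independent between genes. These rates need not hold for smaller changes, for lower genes or for libraries in which many genes vary together.

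Fragments per library were estimated from low FPKM values, which limits the precision of low genes. Sequences and positions came from RefSeq GRCm38.p6, in which all 68 P450 symbols matched, and shared 50-base words from GENCODE M21 transcripts. Alternatives changed the scaling, the filter, the pseudocount, the libraries, the groups fitted and the covariates. Libraries with the same number in different groups were not treated as pairs in the main fit.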

Additional observations from a re-analysis of the deposited data

Results flagged for a closer look

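In 47 groups of 4 libraries examined, 1 library stood far from the other 3 in 3 cases, where chance alone flags about 1 group in 20. In each the gap to the nearest library, as a share of the group's range, was above Dixon's critical value for groups of 4. Cyp1a1 was at 0.259 FPKM in HFD 1 and at 0 to 0.0425 FPKM in the other HFD libraries, a gap of 0.836 of the range. Cyp2b10 was at 170.9 FPKM in FSP 3 and at 57.9 to 76.9 FPKM in the other FSP libraries, a gap of 0.832 of the range. Cyp3a11 was at 212 FPKM in FSP 3 and at 90.5 to 98.3 FPKM in the other FSP libraries, a gap of 0.935 of the range.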

How the results depend on the processing

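Across the alternatives, 983 values of single P450 genes kept their direction and their side of the threshold, 85 lost a call, 5 gained one and 40 turned direction. The 983 include values of genes that were not called in the main fit. Of the counts and family sums, 274 stayed close to their main value and 38 moved. Counts were compared by size, not by which genes were called. With no filter, 6 P450 genes were called higher in HFD against ND, as in the main fit, but only 3 of them were called higher in both. The number of P450 genes called lower in FSP against HFD was 1 with a filter at a mean of 5 FPKM, with the filter and pseudocount at 0.1 and with equal totals. The gene was Cyp4a10 with the filter at 5 FPKM and with equal totals. Cyp4a10 averaged 1.96 FPKM in FSP, 20.9 FPKM in HFD and 2.75 FPKM in ND. It passed the filter at 5 FPKM only through HFD, so its call there is counted but supports nothing. With the filter and pseudocount at 0.1 the gene was Cyp2c38, and neither Cyp2c23 nor Cyp4a10 was called. Cyp2c38 passed that filter only through HFD, so its call is counted but supports nothing. With no filter the number called lower in FSP against HFD was 0, as was the number called higher there (4 higher and 10 lower at an unadjusted p under 0.05 in limma) and the number higher in FSP against ND. In FSP against ND, 2 were lower with the filter and pseudocount at 0.1, Cyp2c55 and Cyp1a1, the latter passing that filter only through ND. There 0 were higher with equal totals or with the position score. FSP against HFD had 0 higher and 0 lower when fitted on those groups alone, and both it and HFD against ND had 0 of each with the position score. Leaving out 1 library gave 3 to 7 higher and 3 to 4 lower in HFD against ND, 0 to 2 higher and 0 to 2 lower in FSP against HFD, and 0 to 3 higher and 1 lower in FSP against ND. The cause was not tested.

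No label states whether the replicate number pairs libraries. As deviations from group means, same-numbered libraries of FSP and HFD correlated at 0.018 to 0.454, and other pairs of these groups at −0.616 to 0.647. Between HFD and ND the same-numbered pairs ran from −0.094 to 0.043 and the others from −0.350 to 0.362. Between FSP and ND they ran from −0.099 to 0.203 and from −0.31 to 0.287. With a replicate block, 6 were higher and 3 lower in HFD against ND, 2 and 3 in FSP against HFD, and 2 and 1 in FSP against ND; Cyp2d22 lost its call in HFD against ND, and Cyp3a25 was called higher there and lower in FSP against HFD.

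Among the tallied genes, directions that turned were all of genes not called, save Cyp4a10 in HFD against ND. Genes outside the tally, none of them called in the main fit, turned too. With the position score in HFD against ND, Cyp2u1 had 0.66, beside −0.98 in the main fit. Cyp2c29 had −1.46 there, beside 1.21. Median-ratio scaling gave 0.083 for Cyp2e1 in HFD against ND, −0.022 for Cyp2b10 and −0.098 for Cyp2j6 in FSP against HFD, and 0.087 for Cyp4b1 and 0.066 for Cyp4f14 in FSP against ND. Quantile normalization gave 0.10 for Cyp2e1, −0.0059 for Cyp2b10 and −0.0876 for Cyp2j6 in the same comparisons. Equal totals without mitochondrially encoded genes gave −0.053 for Cyp2j6 in FSP against HFD. With the position score, HFD against ND gave −1.98 for Cyp2b10, 0.29 for Cyp2e1, −0.78 for Cyp3a13, −0.63 for Cyp3a25, −0.53 for Cyp4a10 and −0.61 for Cyp4v3. FSP against HFD then gave 0.70 for Cyp2c65, 0.022 for Cyp2d22, 0.37 for Cyp2d26, 0.15 for Cyp2j9, 1.41 for Cyp3a11, 0.57 for Cyp3a13 and 0.047 for Cyp3a25, and FSP against ND −0.21 for Cyp3a13.

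Leaving out 1 library gave −0.41 to 0.53 for Cyp2b10, −0.058 to 0.24 for Cyp2j6 and −0.37 to 0.033 for Cyp3a13 in FSP against HFD. It gave −0.20 to 0.068 for Cyp2e1 and −0.89 to 0.040 for Cyp3a11 in HFD against ND. In FSP against ND it gave −0.35 to 0.084 for Cyp3a25, −0.75 to 0.16 for Cyp4a10, −0.16 to 0.16 for Cyp4b1 and −0.12 to 0.037 for Cyp4f14. Depth limits genes near 0.01 FPKM, where a value rests on single fragments.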
